A study of Mus musculus with 15 samples.

Results

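The *Ms4a* genes encode membrane-spanning 4-domain proteins, a family of small proteins that cross the cell membrane several times and sit mostly in the surface membrane of blood cells. The members described here are the 17 genes whose symbol starts with *Ms4a* and a digit among the 17531 genes of the authors' log2 CPM table (counts scaled to the library total, on a log scale). Members were thus chosen by being listed there, which is a matter of expression level. *Ms4a18*, with nearly all its counts in treated libraries, is listed through these. The count table, with 32544 symbols, held 19 such symbols. Of those just inside the log2 table, *Ms4a18* had 82 counts and *Ms4a3* 95 counts over all 15 libraries. Of those outside it, *Ms4a15* had 65 counts, with 1 to 10 per library, and *Ms4a13* had 17 counts, with 0 to 4 per library. All 17 listed members also passed the filter on low counts, among 17477 genes tested.

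RNA was taken from whole colon tissue of mice of 3 *Tert* genotypes, where *Tert* encodes the catalytic subunit of telomerase. WT mice carried the normal gene, VAA mice carried an enzymatically inactive TERT, and KO mice lacked it. Each genotype was left untreated (2 libraries) or given 3% dextran sulfate sodium (DSS), which injures the colon epithelium and causes colitis, for 4 days and then plain water for 4 days, with colon harvested on day 8 (3 libraries). The mice were 8 to 12 weeks old, and the strain background, the deleted part of *Tert* and the way animals were assigned are not stated in the labels. The labels do not say that replicates are separate animals, so P-values measure the spread between these libraries.

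MS4A proteins associate with receptors and channels in the membrane and adjust their signalling, and members differ in the cell types they are known from. *Ms4a1* encodes CD20, the B cell surface protein targeted by therapeutic antibodies, and *Ms4a2* encodes the beta chain of the high affinity IgE receptor of mast cells and basophils. *Ms4a3* is a gene of granulocyte and monocyte precursors, *Ms4a4a* and *Ms4a7* are known from macrophages, several *Ms4a4* and *Ms4a6* genes from monocytes and macrophages, and *Ms4a4b* from T cells. *Ms4a8a*, *Ms4a10* and *Ms4a12* are known from the intestinal epithelium, human MS4A12 being a colonocyte membrane protein.

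All 19 genes lie in a single cluster on chromosome 19, at chr19:10962293-11640851 in mm10 (GENCODE M21), which spans 678.6 kb and contains 3 other protein-coding genes. *Ms4a10* opens the cluster and *Ms4a3* closes it, and 13 genes are on the minus strand. The 6 on the plus strand, *Ms4a4a*, *Ms4a4c*, *Ms4a4b*, *Ms4a6c*, *Ms4a6b* and *Ms4a4d*, follow each other in that order, from 11375523 to 11558467. The start regions of these neighbours are shown because they hold the longest stretches that any 2 members' promoters had in common. The same genes also share part of their transcript sequence, so their counts can partly be confused. Each window runs from 250 bases before to 50 bases after the start of the gene in RefSeq (GRCm38.p6), on the plus strand, at chr19:11443308-11443607 for *Ms4a4b*, chr19:11407411-11407710 for *Ms4a4c*, chr19:11518309-11518608 for *Ms4a6b* and chr19:11469118-11469417 for *Ms4a6c*. Capitals mark runs of at least 12 bases found identically in the partner, which is *Ms4a4c* for *Ms4a4b* and *Ms4a6c* for *Ms4a6b*.
Ms4a4b: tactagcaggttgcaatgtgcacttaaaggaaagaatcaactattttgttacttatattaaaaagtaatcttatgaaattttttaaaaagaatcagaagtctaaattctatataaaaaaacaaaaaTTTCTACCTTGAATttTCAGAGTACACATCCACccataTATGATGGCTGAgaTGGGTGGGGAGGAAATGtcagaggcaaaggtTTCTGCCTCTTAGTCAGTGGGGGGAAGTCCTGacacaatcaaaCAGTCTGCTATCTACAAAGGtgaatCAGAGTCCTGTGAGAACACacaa
Ms4a4c: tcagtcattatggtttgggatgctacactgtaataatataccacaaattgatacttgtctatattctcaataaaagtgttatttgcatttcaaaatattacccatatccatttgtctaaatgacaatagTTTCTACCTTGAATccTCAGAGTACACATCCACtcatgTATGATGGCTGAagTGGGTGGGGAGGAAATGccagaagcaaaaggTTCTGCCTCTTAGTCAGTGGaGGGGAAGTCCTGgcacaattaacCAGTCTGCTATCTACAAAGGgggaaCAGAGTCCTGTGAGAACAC
Ms4a6b: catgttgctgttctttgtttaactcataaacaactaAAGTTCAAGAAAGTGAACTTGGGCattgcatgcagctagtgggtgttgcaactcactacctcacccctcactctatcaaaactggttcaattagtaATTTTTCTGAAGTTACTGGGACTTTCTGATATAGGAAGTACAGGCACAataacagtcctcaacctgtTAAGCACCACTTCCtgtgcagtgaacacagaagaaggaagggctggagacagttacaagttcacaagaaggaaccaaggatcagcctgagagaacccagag
Ms4a6c: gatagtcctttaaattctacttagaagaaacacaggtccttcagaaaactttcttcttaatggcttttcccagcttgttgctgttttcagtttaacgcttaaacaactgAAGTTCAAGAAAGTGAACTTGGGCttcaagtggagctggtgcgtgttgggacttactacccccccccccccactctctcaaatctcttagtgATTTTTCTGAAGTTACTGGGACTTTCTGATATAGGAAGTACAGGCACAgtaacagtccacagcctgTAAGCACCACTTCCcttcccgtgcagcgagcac
The first pair shared 131 of 300 bases in such runs, the longest of 20 bases. The second pair shared 86 bases, the longest run of 48 bases. Windows were found for 17 of the 19 genes, all but *Ms4a1* and *Ms4a6d*, and the longest run in any other pair of the 18 windows was 13 bases.

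Of 5 known factor motifs searched on both strands, 3 matched, each in the window of 1 of the 17 genes. The interferon response core was found in *Ms4a18* alone, the STAT motif TTCNNNGAA in *Ms4a12* alone and the octamer ATTTGCAT in *Ms4a4c* alone. Of 32851 promoters of the same length, 3.44%, 8.3% and 1.74% held these motifs. The PU.1 motif GAGGAAGT, in 3.2% of promoters, and the NF-kB motif, in 0.155%, had no match in the members' windows. A match describes letters in a window and not a bound site, and no match says nothing of the factor.

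The plus-strand neighbours are also alike in their coding sequence. *Ms4a4b* and *Ms4a4c* were identical at 91.7% of aligned coding bases, *Ms4a4c* and *Ms4a4d* at 85.7%, and *Ms4a4b* and *Ms4a4d* at 83.5%. In the other subfamily *Ms4a6b* and *Ms4a6d* were identical at 79.8%, *Ms4a6b* and *Ms4a6c* at 74.0%, and *Ms4a6c* and *Ms4a6d* at 66.8%. Of the 31-base words in a gene's transcripts, 15.6% for *Ms4a4c* and 14.2% for *Ms4a6c* also occurred in another member. The share was 7.7% for *Ms4a6b*, 5.1% for *Ms4a6d*, 3.86% for *Ms4a4b*, 3.76% for *Ms4a2* and 3.44% for *Ms4a4d*. *Ms4a6c* further shared 51.0% of its words with BE692007, an annotated gene on the opposite strand that was not analysed here, and the sources used here do not give whether counting used strand. Values for *Ms4a2*, *Ms4a4b*, *Ms4a4c*, *Ms4a4d*, *Ms4a6b*, *Ms4a6c* and *Ms4a6d* are therefore less certain than those for *Ms4a4a* or *Ms4a8a*, which shared 0 words with other members.

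Library totals ran from 10.6 to 17.5 M counts, the shallowest being VAA DSS replicate 3. *Tert* had 77 counts in untreated WT, 40 in untreated VAA and 2 in untreated KO libraries, and 85, 48 and 1 under DSS. Untreated WT replicate 2 and untreated KO replicate 2 were read as male and the other 13 as female, from counts of Y-linked genes. These counts were 4647 and 4289 in the libraries read as male. They were 356 to 714, and thus not absent, in those read as female. No DSS library was read as male, so for WT and KO sex and treatment overlap in part. Values with sex in the fit are given where they matter. The epithelial genes *Epcam* and *Krt8* and the leukocyte gene *Ptprc* had counts in every library. In such bulk tissue, fewer cells of a type and less RNA per cell cannot be told apart. CPM values below are scaled by library total and by edgeR's trimmed mean factor.

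Per kb of transcript, the epithelial member *Ms4a8a* stood far above the rest of the family, at 268 ± 23.2 CPM per kb (SD, n = 6) in untreated colon. *Ms4a12* followed at 23.4 ± 4.33, and the macrophage member *Ms4a7* came next at 4.52 ± 0.648. *Ms4a4d* (4.09 ± 0.677), *Ms4a6c* (3.74 ± 0.417), *Ms4a4a* (3.01 ± 0.539), *Ms4a10* (2.69 ± 1.36) and *Ms4a1* (2.58 ± 1.70) formed a continuous series in which neighbours differed by less than the sum of their SDs. In the 9 DSS libraries *Ms4a8a* was at 376 ± 36.2 and *Ms4a12* at 19.3 ± 2.97 CPM per kb. *Ms4a6c* (6.66 to 14.7), *Ms4a4a* (2.94 to 24.1) and *Ms4a6d* (3.17 to 14.5 CPM per kb) are given as ranges without an order, since their levels differed between the genotypes. Lengths are those of the GENCODE transcript with the longest coding sequence, since the sources used here do not give the authors' lengths, and the length of *Ms4a4b* depends strongly on the transcript taken.

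**Figure D1:**
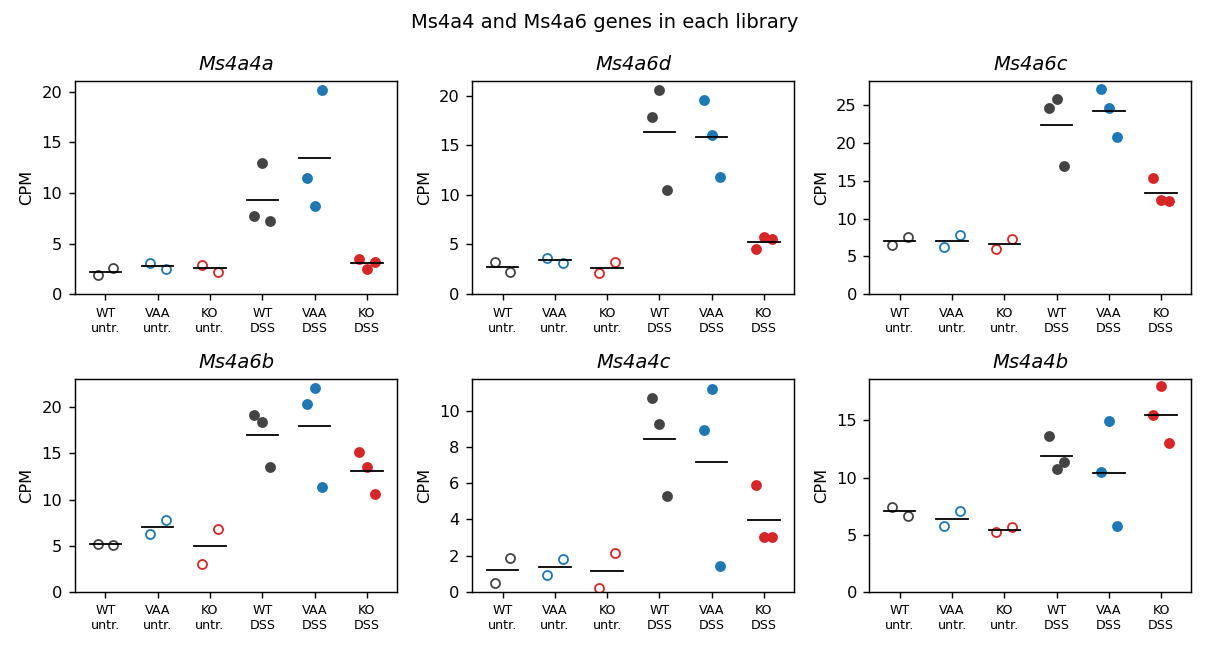
CPM (vertical axes, from 0) of 6 *Ms4a4* and *Ms4a6* members in each of the 15 libraries, by genotype and treatment. Points are libraries and bars are group means; *Ms4a4a* and *Ms4a6d* are high in the WT and VAA DSS libraries and low in the KO DSS libraries.

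The question asked of the treatment was which members changed in the inflamed colon. Averaged over the 3 genotypes, 8 of 17 members rose with DSS (*Ms4a4a*, *Ms4a4b*, *Ms4a4c*, *Ms4a6b*, *Ms4a6c*, *Ms4a6d*, *Ms4a8a* and *Ms4a18*) and 1 fell (*Ms4a4d*). *Ms4a18* was tested only through its DSS libraries, and 7 members rose without it. Of all genes tested 22.5% rose and 20% fell, 42.6% in all. The members' median log2 fold change was 0.51, beside 0.01 over all genes. In WT alone 6 members rose and 0 fell, beside 14.1% and 12.5% of all genes (26.6% in all). In VAA 5 rose and 0 fell, beside 10.9% and 9.54% (20.4% in all), and in KO 4 rose and 0 fell, beside 5.59% and 5.06% (10.7% in all). The members' medians in WT, VAA and KO were 0.75, 0.70 and 0.58, while those of all genes were -0.01, 0.06 and 0.00.

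*Ms4a4a*, which encodes a surface protein of macrophages, was at 1.85 and 2.56 CPM in the untreated WT libraries and at 7.73, 13 and 7.20 in the WT DSS libraries. In VAA it went from 3.08 and 2.47 to 11.4, 8.73 and 20.2 CPM, and in KO from 2.91 and 2.21 to 3.49, 2.46 and 3.20. The DSS libraries thus lay wholly above the untreated ones in WT and VAA, while the KO libraries overlapped. *Ms4a4a* rose by 2.07 ± 0.40 (log2, SE) in WT (edgeR, Benjamini-Hochberg adjusted P = 0.0024) and by 2.26 ± 0.39 in VAA (adjusted P = 0.0013). In KO the change of *Ms4a4a* was 0.24 ± 0.39 (edgeR, adjusted P = 0.74). The highest value came from the shallowest library, VAA DSS replicate 3, and without it the VAA change was 1.85 (edgeR, adjusted P = 0.001).

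*Ms4a6d* is a monocyte and macrophage member of the *Ms4a6* subfamily. It was at 3.21 and 2.22 CPM in untreated WT and at 17.9, 20.5 and 10.4 in WT DSS libraries. In VAA it went from 3.65 and 3.15 to 19.6, 16.0 and 11.8 CPM, and in KO from 2.13 and 3.21 to 4.50, 5.73 and 5.50. Every DSS library was above the untreated libraries of its genotype, but the KO DSS libraries were all below those of WT and VAA. *Ms4a6d* rose by 2.58 ± 0.34 in WT (edgeR, adjusted P = 0.00022) and by 2.21 ± 0.34 in VAA (adjusted P = 0.00049), and its change of 0.97 ± 0.33 in KO did not pass (adjusted P = 0.08). That KO change of *Ms4a6d* passed without VAA DSS replicate 3 (0.98, edgeR, adjusted P = 0.039) and with the replicate number as a block (1.15, adjusted P = 0.034).

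*Ms4a6c*, a close relative of *Ms4a6d* also known from monocytes, was at 6.49 and 7.54 CPM in untreated WT and at 24.6, 25.8 and 16.9 under DSS. In VAA it was at 6.23 and 7.84 and then 27.1, 24.7 and 20.8 CPM, and in KO at 5.95 and 7.28 and then 15.4, 12.5 and 12.3. The DSS libraries were above the untreated ones in each genotype. *Ms4a6c* rose by 1.67 ± 0.23 in WT, 1.79 ± 0.23 in VAA and 1.01 ± 0.22 in KO (edgeR, adjusted P = 0.00024, 0.00014 and 0.014). The KO call of *Ms4a6c* was lost without untreated KO replicate 1 (0.88, edgeR, adjusted P = 0.14) and without both male libraries (1.17, adjusted P = 0.068).

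*Ms4a6b* went from 5.20 and 5.12 to 19.2, 18.4 and 13.5 CPM in WT, from 6.23 and 7.75 to 20.4, 22.1 and 11.3 in VAA, and from 3.04 and 6.85 to 15.1, 13.5 and 10.6 in KO. Again the groups did not overlap within any genotype, although the 2 untreated KO libraries differed by more than the 2 of WT. *Ms4a6b* rose by 1.72 ± 0.35 in WT, 1.37 ± 0.35 in VAA and 1.41 ± 0.35 in KO (edgeR, adjusted P = 0.0035, 0.013 and 0.024). The VAA call was lost without untreated VAA replicate 1 (1.22, edgeR, adjusted P = 0.13) or 2 (1.53, adjusted P = 0.056) and in a fit of only the VAA groups (1.36, adjusted P = 0.079). In KO the *Ms4a6b* change was 0.93 without untreated replicate 1 (edgeR, adjusted P = 0.21), 1.30 without DSS replicate 1 (adjusted P = 0.066) and 1.39 without DSS replicate 2 (adjusted P = 0.061).

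*Ms4a4c*, the near copy of *Ms4a4b*, was low in untreated colon, at 0.479 and 1.88 CPM in WT, 0.930 and 1.79 in VAA and 0.194 and 2.14 in KO. Under DSS it was at 10.7, 9.27 and 5.31 in WT, 8.91, 11.2 and 1.44 in VAA and 5.89, 3.00 and 3.05 in KO. VAA DSS replicate 3 fell among the untreated VAA libraries, and the lower untreated library of each genotype was replicate 1. The averaged rise was 2.35 ± 0.51 (edgeR, adjusted P = 0.0025), or 3.54 with sex in the fit. In WT the rise of *Ms4a4c* was 2.82 ± 0.90 (edgeR, adjusted P = 0.034), and in VAA and KO the changes of 2.43 ± 0.89 and 1.78 ± 0.89 did not pass (adjusted P = 0.071 and 0.22). The VAA change of *Ms4a4c* passed without VAA DSS replicate 3 (2.90, edgeR, adjusted P = 0.008), without untreated KO replicate 1 or 2 (2.43, adjusted P = 0.048 each) and with sex in the fit (2.43, adjusted P = 0.034). The WT call was lost without untreated WT replicate 1 (2.14, edgeR, adjusted P = 0.24), untreated WT replicate 2 (4.11, adjusted P = 0.066), WT DSS replicate 1 (2.61, adjusted P = 0.078) or WT DSS replicate 2 (2.75, adjusted P = 0.075).

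*Ms4a4b*, known from T cells, was at 7.45 and 6.66 CPM in untreated WT and 13.6, 10.7 and 11.3 under DSS. In VAA it went from 5.72 and 7.07 to 10.5, 15 and 5.76, and in KO from 5.24 and 5.64 to 15.5, 18 and 13. Only VAA DSS replicate 3 lay within its untreated range. *Ms4a4b* rose by 0.99 ± 0.18 on average (edgeR, adjusted P = 0.00066) and by 1.51 ± 0.32 in KO (adjusted P = 0.011), while 0.75 ± 0.31 in WT and 0.71 ± 0.31 in VAA did not pass (adjusted P = 0.088 and 0.13). Without VAA DSS replicate 3 the VAA change was 0.99 (edgeR, adjusted P = 0.0054) and the WT change 0.76 (adjusted P = 0.011), and without VAA DSS replicate 2 the WT change was 0.75 (adjusted P = 0.04). The KO call was lost without untreated KO replicate 1 (1.46, edgeR, adjusted P = 0.11) or 2 (1.57, adjusted P = 0.067) and without both male libraries (1.57, adjusted P = 0.093).

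*Ms4a4d* was the member that fell. It was at 6.56 and 6.87 CPM in untreated WT, 6.08 and 7.50 in VAA and 4.66 and 5.42 in KO, and at 6.27, 4.68 and 3.89, then 3.49, 5.20 and 4.90, then 4.11, 2.87 and 3.49 under DSS. The DSS libraries were below the untreated ones in each genotype. *Ms4a4d* fell by 0.52 ± 0.15 on average (edgeR, adjusted P = 0.014), and its changes within WT, VAA and KO did not pass (-0.44, -0.58 and -0.53). The averaged change was -0.47 with sex as a covariate (edgeR, adjusted P = 0.058) and -0.47 without both male libraries (adjusted P = 0.078). *Ms4a7*, of the macrophage lineage, stayed between 5.87 and 8.97 CPM in all 15 libraries, with an averaged change of 0.09 ± 0.13 (edgeR, adjusted P = 0.59). *Ms4a14* lay between 0.716 and 2.5 CPM, with an averaged change of -0.01 ± 0.24 (edgeR, adjusted P = 0.98).

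Markers of the cells in which these members are known also moved with DSS, and their part in the members' changes was not tested. Of 10 recruited monocyte genes 7 rose and 2 fell on average, with a median of 1.32, and *Ly6c2*, *Ccr2* and *Plac8* rose by 1.43, 1.91 and 1.09. Of 13 resident macrophage genes 4 rose and 4 fell, with a median of 0.11, and the complement genes *C1qa* and *C1qb* rose by 0.57 and 0.80 while *C1qc* was at 0.18. Of 14 T and NK cell genes 11 rose, with a median of 1.91, among them *Cd3e* (1.86) and *Cd3g* (3.17), and *Cd3d* was at 0.25. All 7 general leukocyte genes rose, with a median of 1.65, *Ptprc* by 1.56. Of 8 dendritic cell genes 4 rose and 1 fell, with a median of 0.47, and *Flt3* rose by 0.97. All 6 smooth muscle genes fell, with a median of -2.22, and their summed CPM was 3401 to 6092 in untreated and 515 to 2163 in DSS libraries. A list of 6 other four-span genes held the *Ms4a*-like *Tmem176a* and *Tmem176b* and tetraspanins such as *Cd81*. It also held *Cd53*, which is among the general leukocyte genes as well. Of these 6, 4 rose and 1 fell, *Tmem176a* rising by 0.52 and *Tmem176b* by 0.42, with *Cd81* at -0.13.

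The epithelial member *Ms4a8a* was the most abundant of the family and changed least among those that rose. It was at 270.2 and 288 CPM in untreated WT, 297 and 311 in VAA and 252 and 318 in KO. Under DSS it was at 383, 361 and 377 in WT, 406, 463 and 393 in VAA and 477, 386 and 411 in KO. Every DSS library was above every untreated library of any genotype. *Ms4a8a* rose by 0.49 ± 0.08 on average (edgeR, adjusted P = 0.0002) and by 0.42 ± 0.13 in WT, 0.47 ± 0.13 in VAA and 0.58 ± 0.13 in KO (adjusted P = 0.031, 0.022 and 0.017). Within a genotype the *Ms4a8a* call was lost without several single libraries. In WT it was lost without any of the 5 WT libraries, with changes of 0.36 to 0.47, and without both male libraries (0.47, edgeR, adjusted P = 0.089). In VAA it was lost without untreated replicate 1 (0.43, edgeR, adjusted P = 0.15), untreated replicate 2 (0.50, adjusted P = 0.093) or DSS replicate 2 (0.40, adjusted P = 0.053), and in a fit of only the VAA groups (0.46, adjusted P = 0.16). In KO it was lost without untreated replicate 1 (0.42, edgeR, adjusted P = 0.18) or DSS replicate 1 (0.49, adjusted P = 0.053).

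*Ms4a12* and *Ms4a10*, also genes of gut epithelium, did not pass in any comparison. *Ms4a12* ranged from 36.1 to 56.4 CPM in the untreated and from 27.6 to 43.6 in the DSS libraries, with an averaged change of -0.28 ± 0.11 (edgeR, adjusted P = 0.06). *Ms4a10* ranged from 0.93 to 4.71 CPM untreated and from 0.96 to 4.34 under DSS, with an averaged change of -0.23 ± 0.31 (edgeR, adjusted P = 0.59). For both genes untreated replicate 2 was above untreated replicate 1 in each genotype. The *Ms4a12* change passed without untreated KO replicate 1 (-0.37, edgeR, adjusted P = 0.015), without VAA DSS replicate 1 (-0.32, adjusted P = 0.036) and by limma on the deposited log2 CPM (-0.34, adjusted P = 0.018).

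**Figure D2:**
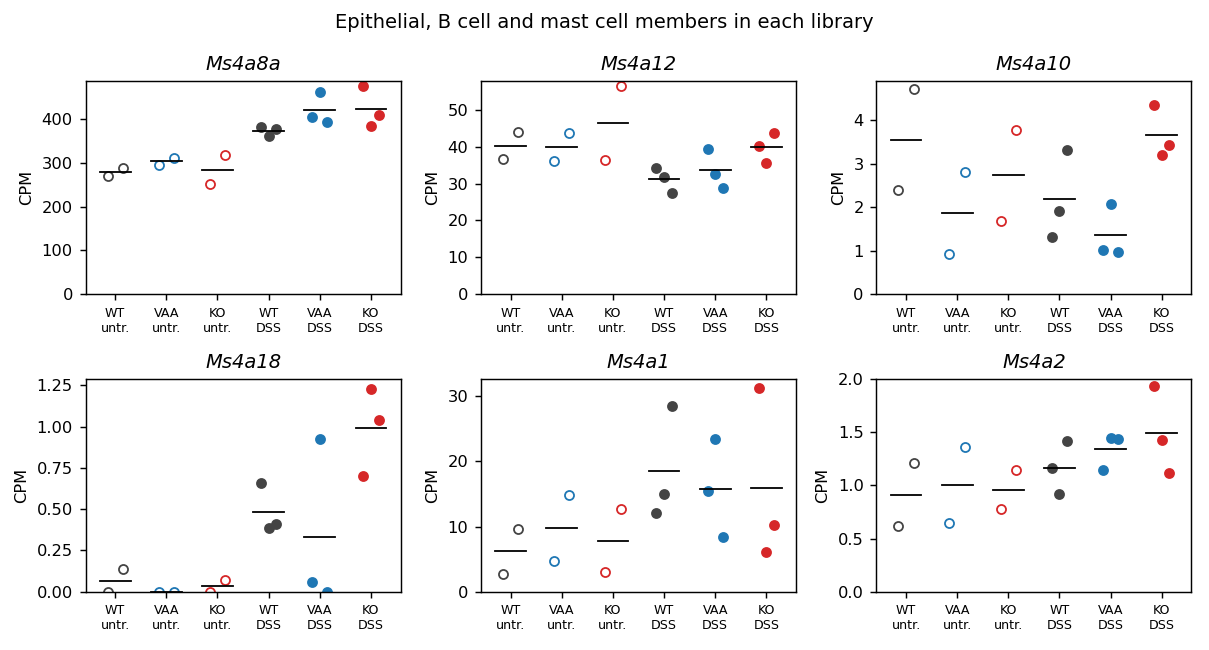
CPM (vertical axes, from 0) of *Ms4a8a*, *Ms4a12*, *Ms4a10*, *Ms4a18*, *Ms4a1* and *Ms4a2* in each of the 15 libraries, by genotype and treatment. Points are libraries and bars are group means; every DSS library is above every untreated one for *Ms4a8a*, while *Ms4a1* spreads widely within each group.

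Epithelial markers moved in both directions with DSS, and their part in the values of *Ms4a8a* and *Ms4a12* was not tested. Of 8 epithelial genes 1 rose and 4 fell on average, with a median of -0.26. The late differentiation keratin *Krt20* rose by 0.98, and *Epcam* and *Krt8* were at -0.15 and 0.20. The summed CPM of the 8 genes was 11898 to 15780 in untreated libraries, 9223 to 11011 in WT DSS, 8416 to 10240 in VAA DSS and 13552 to 15425 in KO DSS libraries. The KO DSS libraries were thus within the untreated range and the other DSS libraries below it.

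*Ms4a1*, the CD20 gene of B cells, varied widely between replicates of the same group. It was at 2.67 and 9.69 CPM in untreated WT, 4.72 and 14.9 in VAA and 2.98 and 12.7 in KO. Under DSS it was at 12.0, 14.9 and 28.4 in WT, 15.5, 23.5 and 8.35 in VAA and 31.3, 6.07 and 10.3 in KO. The WT groups did not overlap, and those of VAA and KO did. The averaged change was 1.10 ± 0.47 (edgeR, adjusted P = 0.075), and the changes in WT, VAA and KO were 1.58 ± 0.83, 0.70 ± 0.80 and 1.02 ± 0.81 (adjusted P = 0.18, 0.59 and 0.46).

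Whether the *Ms4a1* change passed depended on single libraries and on whether sex was in the fit. The libraries read as male were untreated replicate 2 of WT and of KO. Untreated VAA replicate 2, read as female, was also above its replicate 1. Sex and replicate number therefore cannot be told apart here. The averaged change passed without untreated WT replicate 2 (1.5, edgeR, adjusted P = 0.044), untreated VAA replicate 2 (1.45, adjusted P = 0.049) or untreated KO replicate 2 (1.56, adjusted P = 0.032). It also passed without VAA DSS replicate 3 (1.20, edgeR, adjusted P = 0.04) or KO DSS replicate 2 (1.23, adjusted P = 0.048). With sex in the fit it was 1.97 (edgeR, adjusted P = 0.013), the WT change then being 2.86 (adjusted P = 0.036). Without both male libraries the averaged *Ms4a1* change was 1.97 (edgeR, adjusted P = 0.02). None of 14 other B cell genes passed on average by edgeR, although 3 had an unadjusted P under 0.05. Their median was 1.17, with *Cd79a* and *Cd79b*, signalling chains of the B cell receptor, at 1.04 ± 0.69 and 1.08 ± 0.67. Their summed CPM ran from 21.1 to 140 in untreated and from 32.1 to 295 in DSS libraries. In each genotype it was higher in untreated replicate 2 than in untreated replicate 1, as *Ms4a1* was, and its part in the *Ms4a1* values was not tested.

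**Figure D3:**
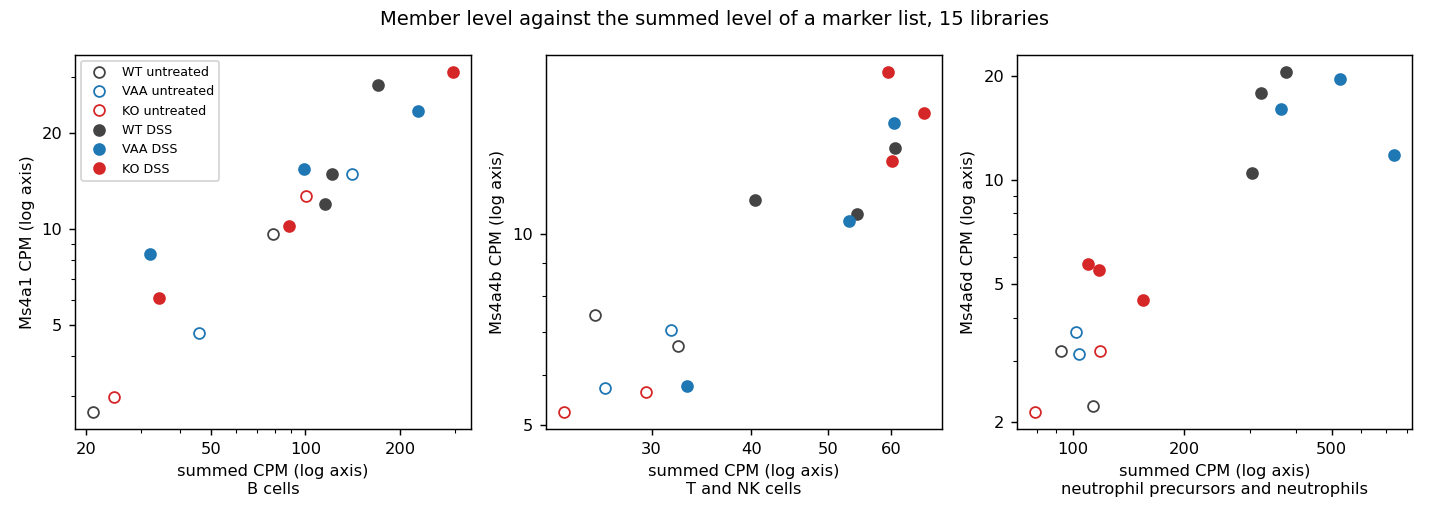
CPM of *Ms4a1*, *Ms4a4b* and *Ms4a6d* (vertical log axes) against the summed CPM of the B cell, the T and NK cell and the neutrophil lists (horizontal log axes) in the 15 libraries. Open points are untreated and filled points DSS libraries. The KO DSS libraries sit at 110 to 155 for neutrophil genes, below the other DSS libraries, and at 4.50 to 5.73 for *Ms4a6d*. *Ms4a6d* is known from monocytes and macrophages, whose lists are not drawn. Under DSS, recruited monocyte sums were 936 to 1414 in KO, 1198 to 1414 in WT and 1521 to 2394 in VAA. Resident macrophage sums were 153 to 214, 173 to 240 and 218 to 353, so KO and WT overlapped in both lists.

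*Ms4a2*, the IgE receptor beta chain, was near 1 CPM throughout. It was at 0.615 and 1.21 in untreated WT, 0.644 and 1.36 in VAA and 0.776 and 1.14 in KO, and at 1.17, 0.920 and 1.42, then 1.14, 1.45 and 1.44, then 1.94, 1.43 and 1.12 under DSS. The groups overlapped in every genotype, and the averaged change was 0.48 ± 0.25 (edgeR, adjusted P = 0.15). Of the partner chains of the same receptor, not all could be tested. *Fcer1g*, the signalling gamma chain that also serves other immune receptors, rose by 1.89 ± 0.21, while *Fcer1a*, the IgE-binding alpha chain, had 0 to 2 counts per library and was not tested. Of the 9 receptor and signalling genes tested 7 rose, among them the kinases *Lyn* (1.18) and *Syk* (1.02), with a median of 1.02. Of 8 mast cell genes tested out of 13 listed, 5 rose and 1 fell. The mast cell proteases *Cma1* and *Mcpt1* rose by 2.03 and 1.68 and *Kit*, the stem cell factor receptor, fell by 1.06, and 7 of the 13 had 0 counts in at least 1 library. The summed CPM of the 13 genes was 58.4 to 77.2 in untreated, 84.0 to 96.6 in WT DSS, 91.7 to 156 in VAA DSS and 47.8 to 59.3 in KO DSS libraries, and its part in the *Ms4a2* values was not tested.

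The remaining members were near the limit of detection. *Ms4a18* had 2, 0 and 1 counts in total in the untreated WT, VAA and KO groups. Under DSS it had 9, 5 and 7 counts in WT, 1, 16 and 0 in VAA and 9, 18 and 14 in KO. It passed the filter on low counts only through the DSS libraries, so a difference there was built in. The ratio of scaled counts was 7.08 in WT (exact 95% counting interval 1.73 to 62.3) and 29.5 in KO (5 to 1192). In VAA it was at least 3.29-fold higher, against a floor of 3 counts over the group. The averaged *Ms4a18* call (edgeR, adjusted P = 0.004) rests on these few counts, and within KO the adjusted P of 0.063 by edgeR became 0.013 without VAA DSS replicate 2 and 0.02 without VAA DSS replicate 3. In VAA it was 0.11 with all libraries and 0.039 without VAA DSS replicate 3 (edgeR, adjusted P). *Ms4a3* had 2 to 13 counts per library, at 0.17 to 0.948 CPM, with an averaged change of 0.30 ± 0.46 (edgeR, adjusted P = 0.64). *Ms4a5*, a gene known from testis, was at 0.241 to 2.30 CPM, with an averaged change of 0.51 ± 0.41 (edgeR, adjusted P = 0.35).

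The comparison of genotypes under DSS asked whether the inflamed colon differed with the state of *Tert*. In KO against WT, *Ms4a4a*, *Ms4a6c* and *Ms4a6d* were lower and 0 members were higher, beside 2.46% and 3.21% of all genes (5.67% in all), and the members' median was -0.23 beside -0.01 for all genes. In KO against VAA the same 3 members were lower and 0 higher, beside 9.41% and 6.01% of all genes (15.4% in all), and the members' median was -0.01. These comparisons share the KO libraries, so their lists are not independent of each other. In VAA against WT 0 members passed by edgeR, with 0 at an unadjusted P under 0.05, 0 by DESeq2 and 0 by limma. Of all genes 0.00572% (1 gene) passed by edgeR and 16.3% had an unadjusted P under 0.05, while DESeq2 called 37 genes and limma 1. Without VAA DSS replicate 2 edgeR called 848 genes, of which 0 were members.

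**Figure D4:**
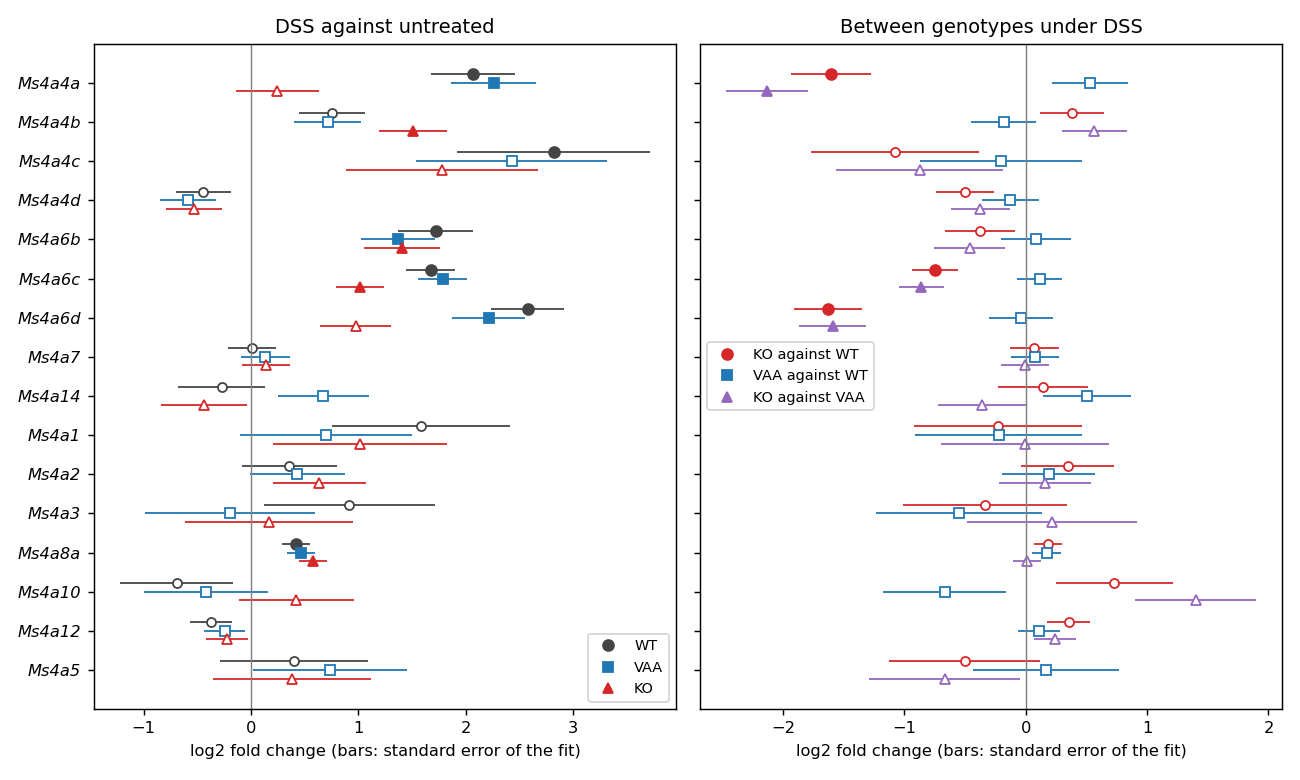
Log2 fold changes (horizontal axes) of 16 members with DSS in each genotype (left) and between genotypes under DSS (right). Symbols are estimates, filled where the adjusted P is under 0.05, and bars are standard errors of the fit; *Ms4a4a*, *Ms4a6c* and *Ms4a6d* are the filled members on the right, all below 0, and *Ms4a18* is left out for its low counts.

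The KO DSS libraries held *Ms4a4a* at 3.05 ± 0.533 CPM (SD, n = 3), against 9.29 ± 3.18 in WT and 13.4 ± 5.98 in VAA. No KO value reached the lowest WT or VAA value given above. *Ms4a4a* was lower in KO than in WT by a log2 change of -1.61 ± 0.33 (edgeR, adjusted P = 0.017) and than in VAA by -2.13 ± 0.33 (adjusted P = 0.0019). Without VAA DSS replicate 3, which had the highest value, the KO against VAA change was -1.72 (edgeR, adjusted P = 0.0025). The KO against WT call was lost without WT DSS replicate 2 (-1.29, edgeR, adjusted P = 0.1), KO DSS replicate 1 (-1.71, adjusted P = 0.059), KO DSS replicate 2 (-1.47, adjusted P = 0.067) or KO DSS replicate 3 (-1.65, adjusted P = 0.058). VAA against WT was 0.53 ± 0.31 for *Ms4a4a* (edgeR, adjusted P = 0.38) and 0.11 without VAA DSS replicate 3.

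*Ms4a6d* was at 5.24 ± 0.656 CPM in KO, 16.3 ± 5.23 in WT and 15.8 ± 3.88 in VAA DSS libraries (SD, n = 3 each), again with no overlap between KO and the others. The change was -1.63 ± 0.28 in KO against WT (edgeR, adjusted P = 0.0082) and -1.59 ± 0.28 in KO against VAA (adjusted P = 0.0034), and -0.04 ± 0.26 in VAA against WT (adjusted P = 0.95). The KO against WT call of *Ms4a6d* was lost without WT DSS replicate 2 (-1.43, edgeR, adjusted P = 0.052).

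*Ms4a6c* was at 13.4 ± 1.72 CPM in KO, 22.4 ± 4.82 in WT and 24.2 ± 3.18 in VAA DSS libraries (SD, n = 3 each), with no overlap. The change was -0.75 ± 0.19 in KO against WT (edgeR, adjusted P = 0.038) and -0.86 ± 0.19 in KO against VAA (adjusted P = 0.0096), and 0.11 ± 0.19 in VAA against WT (adjusted P = 0.76). Against WT the *Ms4a6c* call was lost without untreated WT replicate 1 or 2 (-0.74, edgeR, adjusted P = 0.055 each), WT DSS replicate 1 (-0.68, adjusted P = 0.13), WT DSS replicate 2 (-0.63, adjusted P = 0.2), KO DSS replicate 1 (-0.85, adjusted P = 0.073), KO DSS replicate 2 (-0.70, adjusted P = 0.12) or KO DSS replicate 3 (-0.69, adjusted P = 0.12), and without both male libraries (-0.74, adjusted P = 0.07). All 3 calls of KO against VAA were kept in each of the 23 alternatives run.

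Other members of these subfamilies did not pass between genotypes. *Ms4a6b* was at -0.38 ± 0.29 in KO against WT and -0.46 ± 0.29 in KO against VAA (edgeR, adjusted P = 0.49 and 0.34). *Ms4a4c* was at -1.08 ± 0.69 and -0.88 ± 0.69 (edgeR, adjusted P = 0.4 and 0.47), with wide standard errors. *Ms4a4b* was at 0.38 ± 0.27 and 0.56 ± 0.27 (edgeR, adjusted P = 0.44 and 0.18), and *Ms4a4d* at -0.50 ± 0.24 and -0.38 ± 0.24 (adjusted P = 0.25 and 0.35). *Ms4a7* was at 0.07 ± 0.20 and -0.01 ± 0.20 (edgeR, adjusted P = 0.89 and 0.99). Among epithelial members *Ms4a10* was at 1.40 ± 0.50 in KO against VAA (edgeR, adjusted P = 0.077), and *Ms4a8a* at 0.18 and *Ms4a12* at 0.35 in KO against WT. Without VAA DSS replicate 2, *Ms4a10* (1.87, edgeR, adjusted P = 0.034), *Ms4a4b* (0.92, adjusted P = 0.02) and *Ms4a18* (adjusted P = 0.008, on few counts) passed in KO against VAA.

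Several of the marker lists that differed between the same groups are given beside these members, and their part in the members' differences was not tested. In KO against WT 4 of 10 recruited monocyte genes were lower and 0 higher, with a median of -1.09, and in KO against VAA 6 were lower, with a median of -1.24. *Ly6c2*, *Ccr2* and *Plac8* did not pass in either, at -0.51, -0.20 and 0.16 against WT. The summed CPM of that list was 936 to 1414 in KO, 1198 to 1414 in WT and 1521 to 2394 in VAA DSS libraries. Of 7 neutrophil genes tested 4 were lower against WT, with a median of -1.50, and 5 against VAA, with a median of -1.92. *S100a8* and *S100a9*, the calprotectin genes, were lower against WT by -4.45 and -3.80, and *Mpo* was at 0.52. Their summed CPM was 110 to 155 in KO, 304 to 375 in WT and 365 to 738 in VAA DSS libraries, with 6 of the 10 listed genes at 0 in at least 1 library and 1 at 0 in every library. Of 13 resident macrophage genes 1 was higher and 0 lower against WT, with a median of -0.35. Against VAA 4 were lower and 0 higher, with a median of -0.66. *C1qb* was at -0.30 and -0.89 in these comparisons, the latter past the threshold. Of 8 mast cell genes tested 2 were lower and 0 higher in each comparison, with medians of -0.07 against WT and -0.37 against VAA. Of the 7 general leukocyte genes 0 passed against WT by edgeR, with 1 at an unadjusted P under 0.05, and 1 was lower against VAA. Of 8 epithelial genes 3 were higher against WT and 6 against VAA, *Epcam* by 0.53 and 0.57.

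In untreated colon 0 members differed between KO and WT or between VAA and WT by edgeR, with 0 at an unadjusted P under 0.05, 0 by DESeq2 and 0 by limma. Of all genes 0% passed by edgeR in either comparison, and 2.01% and 1.33% had an unadjusted P under 0.05. DESeq2 called 9 and 2 genes there, and limma 1 and 0. *Tert* itself, with 77 counts in untreated WT and 2 in untreated KO, did not pass in KO against WT (-5.09 ± 0.77, edgeR, adjusted P = 0.27). A count of 0 members therefore does not show that the untreated colons are alike. The *Ms4a4a* means there were 2.20, 2.77 and 2.56 CPM and the *Ms4a6d* means 2.72, 3.40 and 2.67 CPM in WT, VAA and KO (n = 2 each).

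The test of whether DSS acted differently in KO than in WT found 0 members by edgeR, beside 0% of all genes, and 0 by DESeq2 and limma, which called 140 and 9 of all genes. *Ms4a4a*, with an interaction of -1.83 ± 0.54 (edgeR, unadjusted P = 0.005, adjusted P = 0.3), and *Ms4a6d*, with -1.60 ± 0.46 (unadjusted P = 0.0041, adjusted P = 0.29), had an unadjusted P under 0.05, as did 9.93% of all genes. A DSS change that passed in WT and not in KO is therefore not shown to differ between them. For VAA against WT the interaction passed for 0 members by edgeR, with 0 at an unadjusted P under 0.05 and 0 by DESeq2 and limma. Of all genes 0% passed there by edgeR, 7.2% had an unadjusted P under 0.05, and DESeq2 and limma called 0.

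For each member the genes with the most similar course over the 15 libraries were sought among 14287 genes outside the family. Likeness is the root mean square difference of log2 CPM after each gene's own mean is removed, so a small value means a close course, and it can be read against the member's own SD. *Ms4a1*, with an SD of 1.02, was closest to *Gpr174* (0.25) and *Hvcn1* (0.30). *Ms4a4c*, with an SD of 1.49, was closest to *Pyhin1* (0.25) and then *Ccr7* (0.54). *Ms4a6c*, with an SD of 0.80, lay closest to *Gsap* (0.18) and *Fcgr2b* (0.20). *Ms4a6b*, with 0.82, lay near *Havcr2* (0.26) and *Rasgrp1* (0.27). *Ms4a6d*, with 1.11, lay near *Asns* (0.28), and *Ms4a4a*, with 1.03, near *St3gal1* (0.28) and *Agpat9* (0.31). *Ms4a4b*, with 0.58, lay near *Nipal2* (0.19). For *Ms4a8a* (SD 0.27) they were *Secisbp2l* (0.07) and *Camk2d* (0.08), and for *Ms4a12* (SD 0.25) *Serf2* (0.12) and *Saraf* (0.13). Within the family the closest pair was *Ms4a2* and *Ms4a8a* (0.26). Of pairs in which both members rose, the closest was *Ms4a6b* and *Ms4a6c* (0.30). Their start regions share the run of 48 bases, and their counts can partly be confused. *Ms4a4b* and *Ms4a4c*, which also rose and share stretches of their start regions, were far apart at 1.12. All these courses share the DSS and untreated groups and library scaling, so they are a description only.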

How the data were processed

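Total RNA libraries of mouse colon, read as 76-base paired ends per the labels' protocols, were analysed in 6 groups. Estimated counts for each gene symbol and, for 17531 genes, log2 CPM were deposited by the authors. The submitters' processing notes name kallisto 0.46 and mm10. The deposited estimated counts were whole numbers, and rounding changed 0 values. The deposited log2 CPM were recomputed from them to within 0.0173.

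For 17477 genes that passed filterByExpr, counts were compared by edgeR 4.0.16 under R 4.3.3 (quasi-likelihood, trimmed mean scaling, 1 mean per group over 15 libraries, common dispersion 0.0457, 9 residual and 4.31 prior degrees of freedom). The threshold in each of 11 comparisons was an adjusted P of 0.05 (Benjamini-Hochberg, over all genes tested). The script was tested on simulated data.

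Members and marker lists were chosen with earlier results of these data known. All members are named, with the first 3 tested genes of each list (others were named after their values were seen), and the 2 most similar genes per member were found by rule and given for 9 members. Some genes that these rules name are not reported here. No protein sequences were used here. Library totals were 10.6 to 17.5 M counts. Over tested genes pooled, counting error was far below the replicate spread (chi-square per degree of freedom 11.6 to 112). This pooled value does not describe members with few counts. Alternatives were DESeq2 1.42.0 size factors and test, limma 3.58.1 on the deposited log2 CPM, no filter, only the groups compared, a replicate block, sex, and libraries left out. Whether equal replicate numbers mark paired libraries is not stated in the labels, and the main fit used no block.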

Additional observations from a re-analysis of the deposited data

How the results depend on the processing

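Counts of members called in each comparison kept within 1.5 times of those reported under DESeq2 size factors, the DESeq2 test, limma on the deposited log2 CPM, no expression filter and sex as a covariate. The 6 members that rose in WT became 4 without WT DSS replicate 1 or 2 (3358 and 2842 of all genes called against 4642). They became 8 without VAA DSS replicate 2 (5123 of all genes). The 5 members that rose in VAA became 3 when only the VAA groups were fitted (1089 of all genes called against 3571), and 3 to 8 when single libraries were left out (1789 to 4902 of all genes). The 4 in KO became 2 without both male libraries and 0 to 6 with single libraries left out. All genes called in KO went from 1862 to 538 without both male libraries, to 403 without untreated KO replicate 1, where 0 members were called, and to 3750 without VAA DSS replicate 3, where 6 were. The 3 lower in KO than WT under DSS became 0 to 3 with single libraries left out. They were 0 without WT DSS replicate 2, where 121 of all genes were called against 991. The 3 called in KO against VAA became 3 to 6, the 6 being without VAA DSS replicate 2 (3796 of all genes against 2695), where the number lower stayed at 3 and *Ms4a10*, *Ms4a18* and *Ms4a4b* were called higher in KO. The fits that shifted held fewer libraries, and the cause of the shifts was not tested. Of 681 values of called members under the alternatives, 639 kept their side of the threshold, 42 did not and 0 changed sign. These alternatives include fits that left out libraries of groups not compared, and calls gained are not counted. The share kept therefore does not measure how far a call depends on the libraries compared.

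With the replicate number as a block, WT had 7 calls (adding *Ms4a4b*), VAA 6 (adding *Ms4a4c*), KO 6 (adding *Ms4a18* and *Ms4a6d*) and KO against VAA 4 (adding *Ms4a10*), while the averaged 9 and the 3 of KO against WT kept their number. Of all genes 5279 were then called in WT against 4642, 3578 in VAA against 3571, 2542 in KO against 1862 and 2647 in KO against VAA against 2695. Deviations of same-numbered libraries correlated at -0.16 to 0.31 (33 pairs, 8 above 0.1). Of 15 libraries, 7 had their nearest neighbour under the same number. These values do not settle whether equal numbers mark paired libraries. *Ms4a18* and *Ms4a3* had at most 18 and 13 counts in a library, so counting error is large in their values. *Ms4a2*, *Ms4a5* and *Ms4a14*, with at most 25, 24 and 32 counts in a library, are also affected.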

Other observations

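RefSeq gives family names to 2 further genes in the cluster that the files list under other symbols and that the choice by symbol therefore leaves out. *1700017D01Rik*, named Ms4a20 there, was at 0.818 to 3.46 CPM over the 15 libraries, with an averaged DSS change of 0.21 ± 0.27 (edgeR, adjusted P = 0.56). Its highest value was in VAA DSS replicate 3, as for *Ms4a4a* and *Ms4a5*. *1700025F22Rik*, named Ms4a19 there, had 4 counts in VAA DSS replicate 3, 1 count in KO DSS replicate 3 and 0 in the other 13 libraries.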
